A study of Saccharomyces cerevisiae with 8 samples.

Results

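Expression in manganese medium was compared between *Saccharomyces cerevisiae* CRN/PPN1 and its parent CRN. The comparison used 4 of the 8 RNA sequencing libraries of the study, chosen by their labels as the manganese libraries, with 2 cultures of each strain. CRN has the genotype MATa ade2 his3 ura3 ppn1Δ::CgTRP1 and therefore lacks PPN1. CRN/PPN1 is CRN transformed with the vector pMB1/PPN1 Sc, so both strains share the deletion, and the second carries PPN1 back and overexpresses it. Both grew at 29 °C in YPD with 14 mM KH2PO4 and 5 mM MnSO4, to the logarithmic stage, which was harvested at 40 h for CRN and at 16 h for CRN/PPN1. Strain and growth time therefore cannot be told apart in any manganese or interaction result below. The other 4 libraries, 2 of each strain from the same medium without manganese at 12 h, gave the control values set beside the results. They also entered the gene filter, the scaling and the shared estimate of spread in the fit. No library of CRN with an empty vector was analysed here, and each strain is a single line, so the vector and the enzyme cannot be told apart either. The replicates are separate cultures grown at the same time, and p-values measure only the spread between such cultures.

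PPN1 encodes a polyphosphatase that cuts inorganic polyphosphate, the long chain of phosphate residues that yeast stores mainly in the vacuole. Polyphosphate is made at the vacuolar membrane by the VTC complex and binds metal cations, manganese among them. The PHO pathway senses phosphate: when phosphate is scarce, the factor Pho4 turns on genes for phosphate transporters, secreted phosphatases and VTC subunits, many of which carry the letters CACGTG in their promoters. Manganese enters through the Nramp transporters Smf1 and Smf2 and, at high supply, also through the phosphate transporter Pho84.

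The libraries held between 2309776 and 3579469 reads counted to genes. The manganese libraries of CRN held 3197494 and 3579469, and those of CRN/PPN1 held 2389317 and 2309776. Levels are given as CPM, the share of a library's counts scaled to a common library size, after TMM scaling, a method that sets the libraries to a common level over most genes. A gene was called when edgeR's quasi-likelihood test gave an adjusted p of at most 0.05 and the difference was at least 1 on the log2 scale. Of 5778 genes tested, 599 (10.4%) were called higher in CRN/PPN1 in manganese and 426 (7.37%) lower. With only the 4 manganese libraries in the fit, 550 were called higher and 412 lower. In control medium the same strain comparison called 257 higher (4.45%) and 257 lower (4.45%). Without the second CRN/PPN1 control library these were 147 and 105, and without the first CRN control library 145 were lower. The 2 strains did not overlap in 596 of the 599 higher genes and in 426 of the 426 lower genes, against 3743 of all 5778 genes (64.78%). Changes of at least 4-fold were found in 158 higher and 91 lower genes.

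The differences went with gene length, and this touches every group of short or long genes below. In the shortest quintile of genes (coding length 78 to 648 bp) 352 genes were called higher and 29 lower, with a median log2 difference of 0.59. In the longest quintile (2130 to 14733 bp) 10 were higher and 125 lower, with a median of -0.32. With manganese, the shortest quintile took 16.5% and 18.8% of the gene counts of CRN and 33.8% and 34.9% of those of CRN/PPN1, against 64.9% to 78.2% in control medium. With the length trend removed from the fit, 398 genes were called higher, 313 of them among the 599, and 368 lower. Whether the trend came from the cells or from the libraries was not tested.

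**Figure D1:**
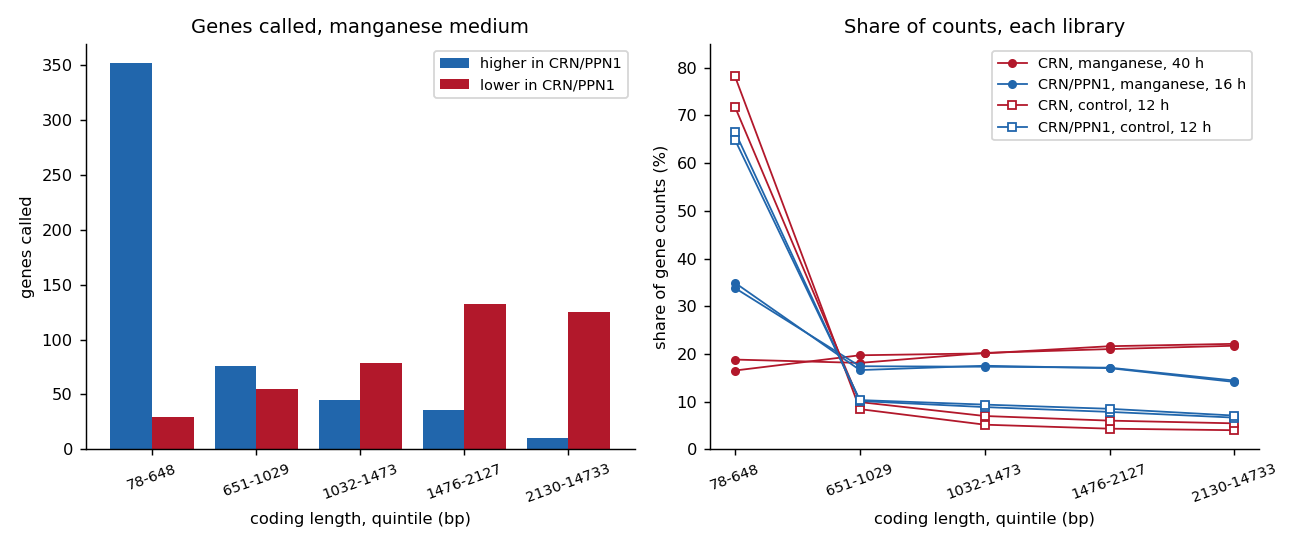
Left, genes called higher (blue) or lower (red) in CRN/PPN1 in manganese in each quintile of genes by coding length. Right, share of gene counts in each quintile (%), 1 line per library: the shortest quintile took 16.5% to 34.9% of counts in manganese and 64.9% to 78.2% in control medium.

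PPN1 itself was at 7.59 and 0.514 CPM in the 2 CRN libraries and at 7132 and 8394 CPM in the 2 CRN/PPN1 libraries. The groups were far apart (log2 difference 10.94, SE 0.65, adjusted p = 1.376e-07), as the labels require. The 39 counts of PPN1 in the first CRN library and 3 in the second show that a few reads were assigned to the deleted gene. In control medium PPN1 was at 5.58 and 3.93 CPM in CRN and at 2945 and 3057 CPM in CRN/PPN1. The strain difference in PPN1 did not pass the test of a difference between the media (interaction 1.64, adjusted p = 0.20).

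URA3, which encodes an enzyme of pyrimidine synthesis and is often carried by vectors as a marker, was at 53.9 and 70.6 CPM in CRN and at 479 and 537 CPM in CRN/PPN1. It was 8.14-fold higher (log2 difference 3.03, SE 0.21, adjusted p = 3.789e-07), and it was also called higher in control medium (2.08). The sources used here do not name the marker of the vector. ADE2 and HIS3, mutant by the labels in both strains, were measured in all 4 libraries. ADE2 was at 49.6 and 55.6 CPM in CRN and at 125 and 137 CPM in CRN/PPN1 (log2 difference 1.31), and HIS3 did not pass the threshold. The a-cell type of the labels was also seen in the data: STE2, the receptor for alpha factor, was at 104 and 120 CPM in CRN and at 261 and 248 CPM in CRN/PPN1. The alpha-specific genes were not all at 0. Their sum was 237 and 206 CPM in CRN and 121 and 54.3 CPM in CRN/PPN1, most of it from SAG1 and AFB1, while MF(ALPHA)1, the main gene of alpha factor, was at 5.45 CPM in the first CRN library and at 2.59 and 1.97 CPM in CRN/PPN1. SAG1 and AFB1 were both called lower in CRN/PPN1 (-1.42 and -1.28), AFB1 not without the first CRN library (adjusted p = 0.0794) or the second CRN/PPN1 library (-0.68).

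Among 32 phosphate and polyphosphate genes, all of them tested, 2 were called higher and 6 lower, with a median of -0.07 beside -0.01 over all tested genes. Of all tested genes, 10.4% were called higher and 7.37% lower. The 6 lower genes were PHO84, PHO89, GIT1, SPL2, PHO5 and VTC3, and the 2 higher genes were PPN1 and PHO3. The letters CACGTG stood in the 500 bases before the coding start of 17 of the 32 (53.1%) on either strand, against 6.25% of all 5539 tested coding genes for which this stretch could be read. The list includes known targets of Pho4, so this share follows in part from how it was drawn up. The letters were found before 5 of the 6 lower genes and not before GIT1. The following stretches are from the reference genome R64, read along the strand of the gene, with the searched letters in capitals, to show what these promoters share. PHO84, SPL2 and VTC3 held further copies.
PHO84, chrXIII:26221-26246, minus strand: ttaatagttcCACGTGgacgtgttat
PHO89, chrII:798830-798855, minus strand: gacaatgcagCACGTGggagacaaat
PHO5, chrII:431189-431214, minus strand: ttggcactcaCACGTGggactagcac
SPL2, chrVIII:375232-375257, minus strand: atgatgtacgCACGTGggcgaaagtt
VTC3, chrXVI:517348-517373, minus strand: tgcgagggccCACGTGgcttaataca

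The letters lie 436 bases before the coding start in PHO84, 323 in PHO89, 253 in PHO5, 147 in SPL2 and 345 in VTC3. Each is a match of letters, not a measured binding site. Among the 426 lower genes, 27 of the 420 with a readable promoter (6.43%) held CACGTG, and among the 599 higher genes 27 of 519 (5.2%), near the share of all genes. CACGTG also stood before 24 of 35 genes of sulfate and methionine metabolism (68.6%).

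The high-affinity phosphate transporters carried the largest of these falls. PHO84, on chromosome XIII, encodes the main high-affinity transporter and was at 152 and 180 CPM in CRN and at 8.09 and 11.8 CPM in CRN/PPN1. It was 16.6-fold lower (log2 difference -4.06, SE 0.28, adjusted p = 3.789e-07). PHO89, the sodium-coupled transporter, was at 107 and 113 CPM in CRN and at 14.9 and 6.58 CPM in CRN/PPN1 (log2 difference -3.35, SE 0.38). Both were called lower in control medium too, where PHO84 was at 722 and 906 CPM in CRN and at 12.7 and 21.3 CPM in CRN/PPN1. PHO89 took the other order across media, with 14.2 and 5.06 CPM in CRN in control medium, below its manganese level. The low-affinity transporters PHO87, PHO90 and PHO91 were not called. PHO90 was at 74.0 and 63.3 CPM in CRN and at 112 and 95.7 CPM in CRN/PPN1 (adjusted p = 0.0562).

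GIT1 takes up glycerophosphoinositol, another source of phosphate. It was at 50.8 and 59.5 CPM in CRN and at 8.74 and 6.58 CPM in CRN/PPN1 (log2 difference -2.84, SE 0.27, adjusted p = 7.287e-06). SPL2, which restrains low-affinity phosphate uptake, was low in all 4 manganese libraries, at 17.1 and 8.40 CPM in CRN and 2.59 and 2.63 CPM in CRN/PPN1 (log2 difference -2.26). It was at 1477 and 812 CPM in CRN in control medium. Secreted acid phosphatases split: PHO5, the repressible enzyme, was at 54.5 and 58.0 CPM in CRN and at 24.3 and 17.1 CPM in CRN/PPN1 (log2 difference -1.44). PHO3, the constitutive enzyme beside it on chromosome II, was at 86.2 and 80.6 CPM in CRN and at 240 and 218 CPM in CRN/PPN1 (log2 difference 1.46, adjusted p = 3.927e-05). PHO3 and PHO5 have similar sequences, and only uniquely mapped reads were counted, so their split is uncertain. PHO12 was at 4.28 to 6.80 CPM in all 4 manganese libraries, against 121 and 134 CPM in CRN in control medium.

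The polyphosphate polymerase complex was changed in 1 of 5 subunits. VTC3 was at 92.3 and 105 CPM in CRN and at 40.1 and 38.5 CPM in CRN/PPN1 (log2 difference -1.33, SE 0.21, adjusted p = 0.0002668). The catalytic subunit gene VTC4 was at 89.9 and 85.5 CPM in CRN and at 60.5 and 62.2 CPM in CRN/PPN1, a difference that missed the test (log2 difference -0.52, adjusted p = 0.09104). VTC1 was at 85.2 and 89.0 CPM against 116 and 119 CPM (log2 difference 0.43, adjusted p = 0.1256). In control medium VTC1 was at 4135 and 3648 CPM in CRN and at 506 and 505 CPM in CRN/PPN1, so its strain difference was called different between the media. Of the other polyphosphatases, PPN2 was at 242 and 235 CPM in CRN and at 150.5 and 168 CPM in CRN/PPN1 (log2 difference -0.58, adjusted p = 0.0223), under the fold limit. PPX1 was at 81.9 and 63.4 CPM against 67.3 and 99.0 CPM, with overlapping groups. PHM7, a membrane protein gene named for phosphate metabolism, was at 162 and 165 CPM in CRN and at 108 and 117 CPM in CRN/PPN1 (log2 difference -0.54, adjusted p = 0.0463), under the fold limit.

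**Figure D2:**
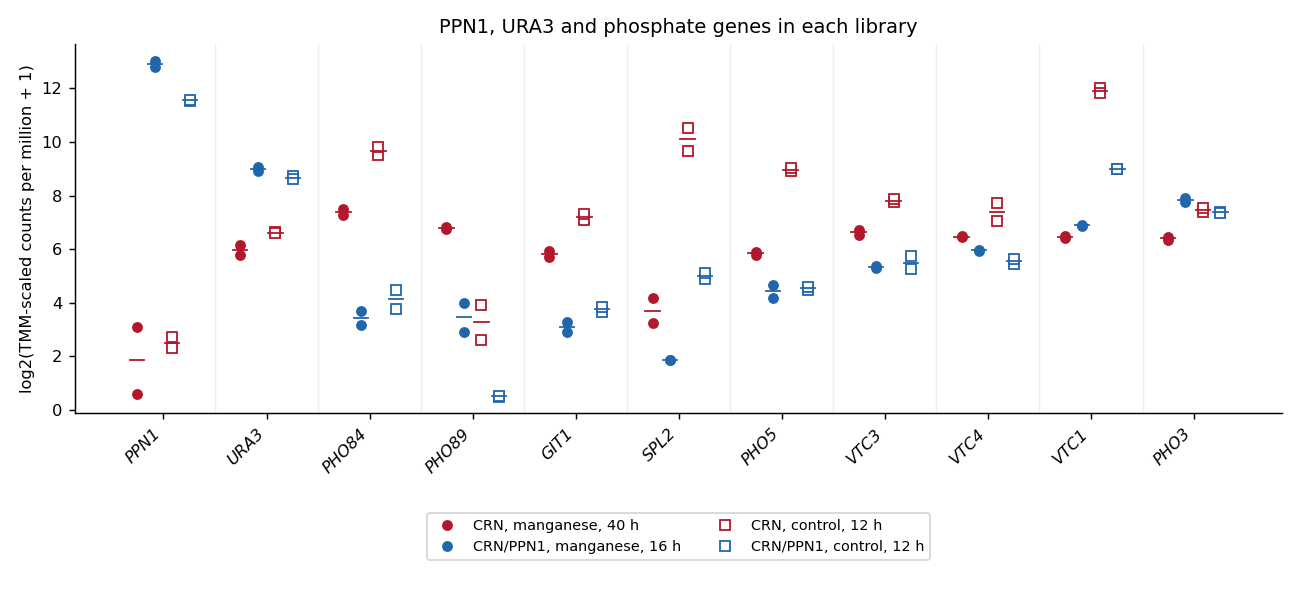
Level of PPN1, URA3 and 9 phosphate genes as log2(CPM + 1), 1 point per library with a bar at the group mean: filled circles are manganese, open squares control medium, red CRN and blue CRN/PPN1. PHO84, GIT1 and PHO5 lie lower in both CRN/PPN1 groups, while VTC1 lies lower only in control medium.

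The genes that were called lower in both media were 12, which is 2.82% of the 426 in manganese and 4.67% of the 257 in control medium. Of all tested genes, 4.45% were called lower in control medium and 7.37% in manganese, so neither share exceeded that of all genes. The 12 were the 6 phosphate genes above, the cell wall mannoprotein genes DAN1, TIR1, TIR3 and TIR4, ANB1 and BIO4. ANB1 is an oxygen-repressed translation factor gene and BIO4 a biotin synthesis gene. The DAN and TIR genes are known for their expression in low oxygen. TIR1 was at 62.5 and 39.6 CPM in CRN and at 8.09 and 5.26 CPM in CRN/PPN1 (log2 difference -2.92, SE 0.38, adjusted p = 5.52e-05). In control medium TIR1 was at 35.3 and 35.4 CPM in CRN and at 1.63 and 1.30 CPM in CRN/PPN1. The strain comparison in control medium shares no library with that in manganese. The genes called higher in both media were 35, which is 5.84% of the 599 and 13.6% of the 257. Of all tested genes, 4.45% were called higher in control medium and 10.4% in manganese. The 35 included PPN1, URA3, HXK1, HSP12, TPS1 and the small RNA genes SNR3, SNR57, SNR62, SNR77 and SNR39B.

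Most manganese calls did not recur in control medium. The median log2 difference of the 599 higher genes was 1.54 in manganese and -0.30 in control medium, and that of the 426 lower genes was -1.40 in manganese and 0.23 in control medium. The first value of each pair follows from how the genes were chosen. Of the 599, 94 were called lower in control medium, and of the 426, 42 were called higher. Of all 5778 tested genes, 4.45% were called lower and 4.45% higher in control medium. The interaction of strain and medium, which tests whether the strain difference differs between the media, called 866 genes in the higher direction (15%) and 672 in the lower direction (11.6%). It called 470 of the 599 higher genes and 288 of the 426 lower genes in their own direction. The interaction contains the manganese difference by which these genes were chosen, so these 2 counts follow in part from that choice.

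**Figure D3:**
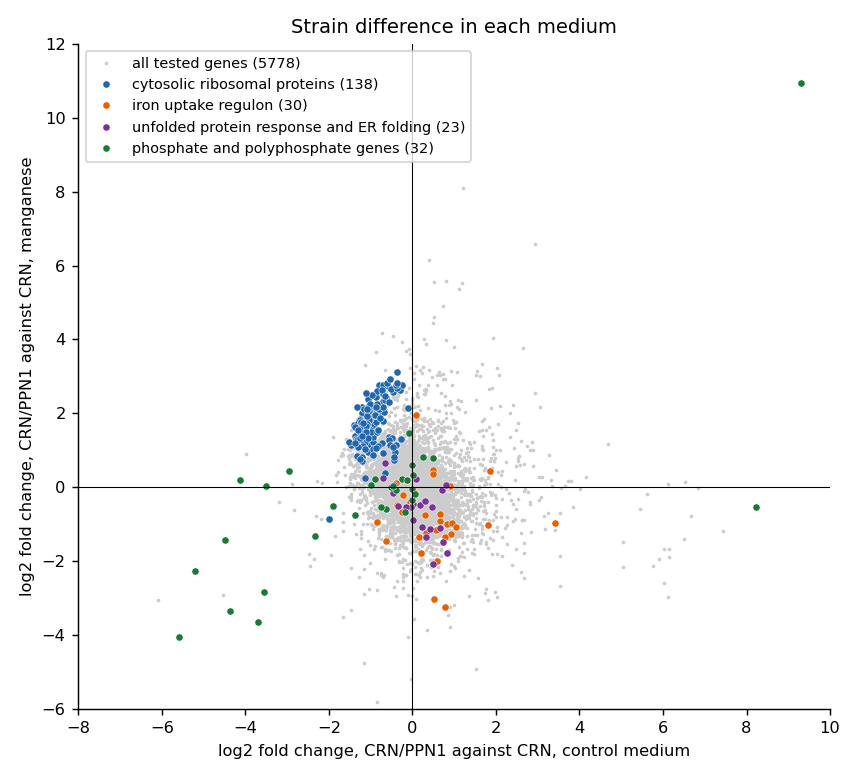
Log2 difference between CRN/PPN1 and CRN in control medium (x axis) and in manganese (y axis) for 5778 tested genes, with 4 gene groups in colour. Ribosomal protein genes other than RPS28B lie above 0 in manganese, and their median in control medium is -0.99, and the 6 phosphate genes called lower in manganese lie to the lower left.

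By number of genes called, the largest of the lists that were higher in CRN/PPN1 was that of cytosolic ribosomal proteins, the structural parts of the ribosome. Of 138 genes tested, 125 were called higher and 0 lower, with a median log2 difference of 1.71. With the length trend removed 105 were called higher and 1 lower. The 138 were picked by gene name and include RPP1, which encodes a subunit of RNase P and was not called. In control medium the same genes had a median of -0.99, with 0 called higher and 69 lower, and 136 were called in the interaction. Together they took 5.78% and 6.82% of the gene counts of the CRN libraries with manganese, 19.4% and 20.3% of those of CRN/PPN1 with manganese, and 36.6% to 51.5% in the control libraries. The CRN/PPN1 libraries in manganese thus stood between those of CRN in manganese and those from control medium.

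RPS30B, on chromosome XV, encodes a protein of the small subunit with a coding length of 192 bp. It was at 175 and 214 CPM in CRN and at 1762 and 1647 CPM in CRN/PPN1, which is 8.76-fold higher (log2 difference 3.13, SE 0.31, adjusted p = 1.26e-05). RPL43A was at 493 and 575 CPM in CRN and at 3554 and 3999 CPM in CRN/PPN1 (log2 difference 2.82). RPL6A was at 227 and 240.0 CPM in CRN and at 1002 and 1031 CPM in CRN/PPN1 (log2 difference 2.12). All these values left no overlap between the strains. RPS28B had the lowest value of the group, -0.87. Many ribosomal protein genes exist as near-identical pairs, and only uniquely mapped reads were counted, so the value of a single copy is uncertain. A Rap1-like motif on either strand (CACCC, then any pair of bases, then ACA) stood before 29 of the 138 genes (21%), before 35 of 519 higher genes (6.74%) and before 2.24% of all tested genes. The 519 include the 125 ribosomal protein genes called higher, so the first 2 shares are not separate. The share among the remaining higher genes was not counted. The motif is shown for RPL36A, chrXIII:650972-651001, plus strand, 163 bases before the coding start, in capitals.
RPL36A: gactgttttaCACCCGTACAtttcacagtt

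Ribosome assembly factors act in the nucleolus and nucleus to build the particle. Of 110 tested, 4 were called higher and 0 lower, with a median of 0.32, so the share called was below the 10.4% of all tested genes. The called genes were NOP10, UTP30, NOP15 and BRX1. NOP10, which encodes a core protein of H/ACA small nucleolar particles, was at 160 and 244 CPM in CRN and at 670 and 990 CPM in CRN/PPN1 (log2 difference 2.04). It lost the call with the length trend removed. The PAC letters, GATGAG on either strand, stood before 100 of the 110 (90.9%) and before 28.1% of all tested genes. Of 20 subunits of RNA polymerases I and III, RPA12 was called higher and RET1 lower, below the shares of all tested genes (10.4% and 7.37%). Neither was called with the length trend removed (0.70 and -0.80). RET1 was also not called without the first CRN/PPN1 library (-0.99). Among 38 translation factors 4 were called higher, TIF1, TIF11, SUI1 and HYP2, near the 10.4% of all tested genes, and ANB1 was called lower. With the length trend removed 6 were higher and 1 lower, while SUI1 (0.78) and HYP2 (0.96) lost the call. TIF1, one of the gene copies of the helicase eIF4A, was at 84.5 and 82.6 CPM in CRN and at 272 and 287 CPM in CRN/PPN1 (log2 difference 1.74, adjusted p = 3.47e-05). HYP2 and ANB1 encode forms of the same factor, eIF5A, the first made in air and the second in low oxygen. HYP2 was at 318 and 268 CPM in CRN and at 844 and 700 CPM in CRN/PPN1 (log2 difference 1.40). ANB1 was at 25.7 and 31.4 CPM in CRN and at 8.74 and 4.28 CPM in CRN/PPN1 (log2 difference -2.12).

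Of 72 small nucleolar and nuclear RNAs that passed the filter out of 79, 53 were called higher and 0 lower, with a median of 2.25. None of the 72 has a coding length, so the length trend could not be removed for this group. These RNAs guide the chemical modification of ribosomal RNA or take part in splicing. Their summed share of the gene counts was low, 0.0779% and 0.116% in CRN and 0.243% and 0.426% in CRN/PPN1 in manganese, against 0.338% to 0.777% in control medium. The replicates differed widely: SNR63 was at 2.73 and 6.86 CPM in CRN and at 26.5 and 142 CPM in CRN/PPN1 (log2 difference 4.10, SE 0.64). SNR189 was at 17.3 and 15.9 CPM in CRN and at 33.7 and 221 CPM in CRN/PPN1, and it lost its call without the second CRN/PPN1 library (1.03, adjusted p = 0.0645). SNR83 had closer replicates, at 19.1 and 28.8 CPM in CRN and at 210 and 157 CPM in CRN/PPN1 (log2 difference 2.93, SE 0.28, adjusted p = 7.461e-06). The library kit selects polyadenylated RNA, and most small nucleolar RNAs carry no stable tail.

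Amino acid synthesis was higher in 21 of 59 genes and lower in 1, with a median of 0.79. These genes are largely targets of Gcn4, the activator of amino acid synthesis. ARG1, which encodes argininosuccinate synthetase, was at 60.3 and 65.5 CPM in CRN and at 549 and 478 CPM in CRN/PPN1 (log2 difference 3.03, SE 0.21, adjusted p = 3.789e-07). HIS4 was at 143 and 128 CPM in CRN and at 404 and 421 CPM in CRN/PPN1 (log2 difference 1.61). LYS21, for the first step of lysine synthesis, was at 79.2 and 70.6 CPM against 196 and 248 CPM (log2 difference 1.57). With the length trend removed, 28 were called higher and 1 lower. GDH3, one of the glutamate dehydrogenase genes, was the lower one, at 50.8 and 71.8 CPM in CRN and at 17.1 and 23.7 CPM in CRN/PPN1, while its relative GDH1 was higher (1.52). The call of GDH3 was lost with counts on either strand (-0.87). In purine synthesis 6 of 21 genes were called higher and 0 lower. ADE17, for a late step of the pathway, was at 73.2 and 64.1 CPM in CRN and at 274 and 316 CPM in CRN/PPN1 (log2 difference 2.10, adjusted p = 1.32e-05).

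In the respiratory chain and ATP synthase 19 of 39 genes were called higher and 0 lower, with a median of 0.88, but with the length trend removed 6 were called higher. ATP19, for a small subunit of the ATP synthase, was at 63.7 and 89.3 CPM in CRN and at 531 and 429 CPM in CRN/PPN1 (log2 difference 2.65, SE 0.26, adjusted p = 1.09e-05). ATP15 was at 176 and 182 CPM in CRN and at 781 and 790 CPM in CRN/PPN1 (log2 difference 2.13). COX9 and QCR10, short subunits of the terminal oxidase and the bc1 complex, rose by 1.84 and 1.60 and lost the call with the length trend removed. Of 87 mitochondrial ribosomal proteins and MRX genes, picked by name, 13 were called higher and 2 lower (MRX4 and MRX11), with a median of 0.36. Of all tested genes, 10.4% were called higher and 7.37% lower. With the length trend removed, 3 were called higher and 2 lower. MRX11 was not called without the second CRN library (-0.79) or the first CRN/PPN1 library (-0.61), nor with only the 4 manganese libraries (adjusted p = 0.0829). The vacuolar ATPase, the pump that acidifies the vacuole, had 8 of 19 genes called higher and 0 lower, with a median of 0.67, and 5 higher with the length trend removed. VMA9 was at 53.5 and 74.4 CPM in CRN and at 246 and 418 CPM in CRN/PPN1 (log2 difference 2.37). VMA5, a longer subunit gene, was at 85.5 and 80.1 CPM in CRN and at 176 and 215 CPM in CRN/PPN1 (log2 difference 1.24). Histone genes were called higher in 5 of 11, and in 3 with the length trend removed. HTB1 was at 170 and 215 CPM in CRN and at 1028 and 711 CPM in CRN/PPN1 (log2 difference 2.18). Histone gene copies are near-identical as well, and their values are uncertain in the same way.

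Among 37 antioxidant genes 8 were called higher and 0 lower, against 10.4% and 7.37% of all tested genes. With the length trend removed 4 were higher and 3 lower. Of the 8, TRX1, TRX2 and TRR1 belong to the thioredoxin system and GRX1, GRX2 and GRX5 are glutaredoxins. The others were 1 of 3 genes listed under superoxide dismutase and MXR1, for a methionine sulfoxide reductase. TRX1 was at 118 and 130 CPM in CRN and at 972 and 694 CPM in CRN/PPN1 (log2 difference 2.75, SE 0.30, adjusted p = 2.12e-05). TRX2 was at 208 and 291 CPM in CRN and at 612 and 1135 CPM in CRN/PPN1 (log2 difference 1.81). No catalase and no peroxiredoxin gene was called. MFA2, which encodes the pheromone a-factor, was at 133 and 108 CPM in CRN and at 1380 and 878 CPM in CRN/PPN1, 9.35-fold higher (log2 difference 3.23, SE 0.35, adjusted p = 1.86e-05). MFA1, its other gene copy, had a log2 difference of 2.24 but lost the call with the length trend removed. The a-specific genes STE6, AGA2 and BAR1 were not called.

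**Figure D4:**
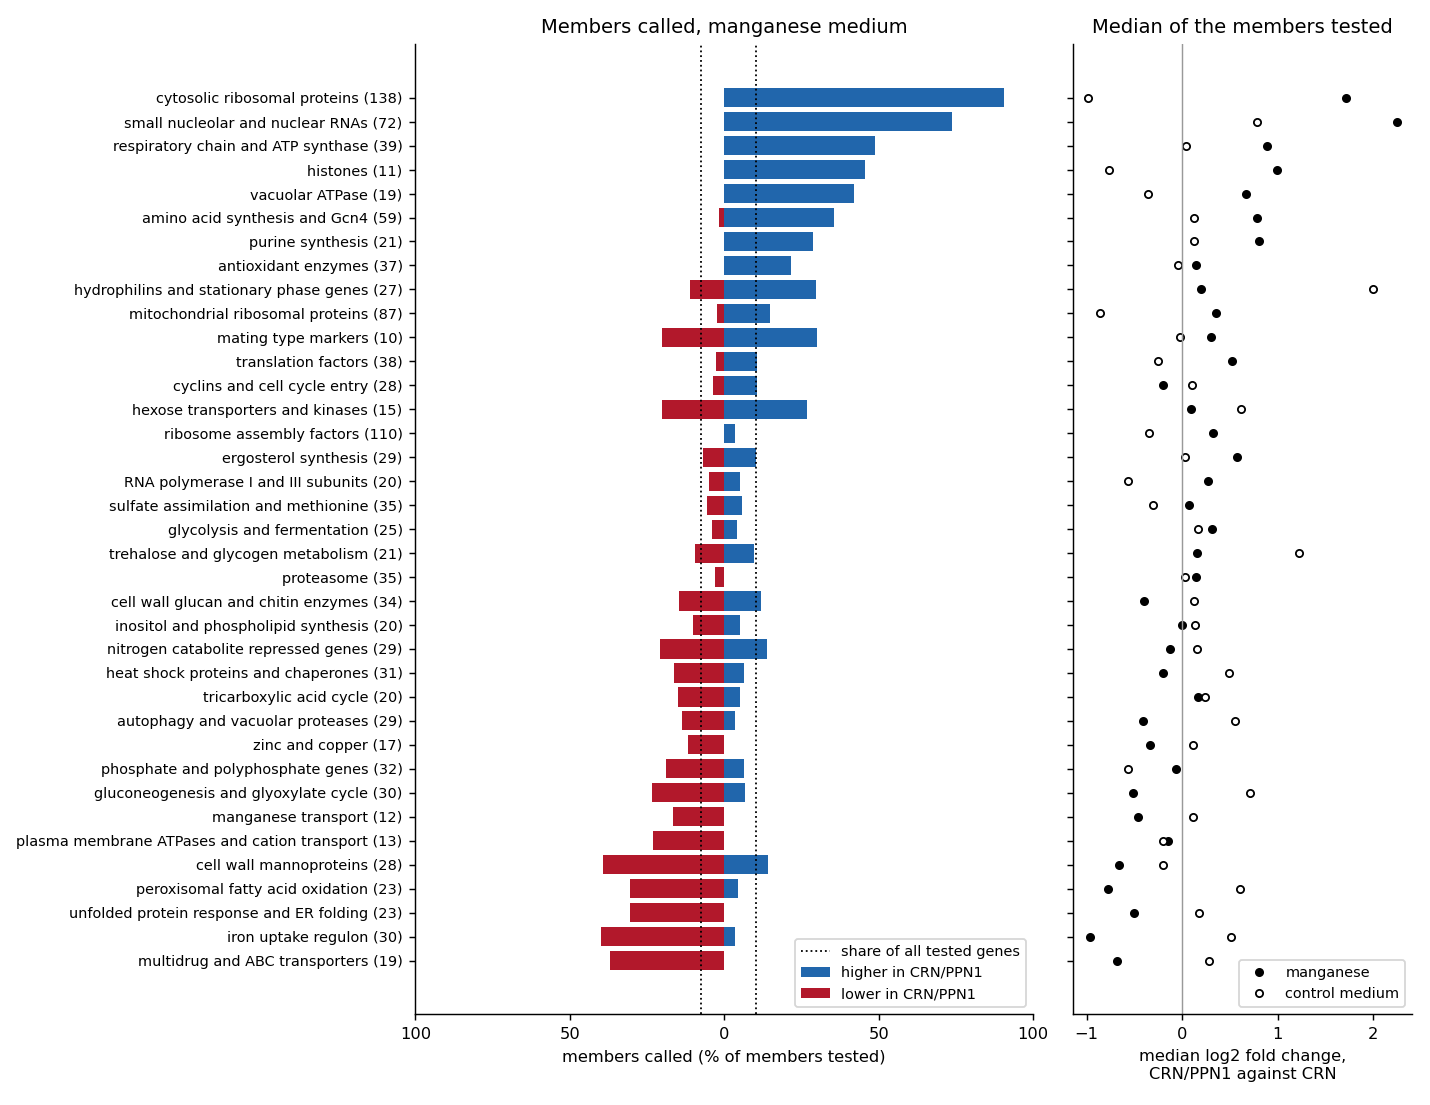
Left, share of the tested members (%, number tested in brackets) called higher (blue) or lower (red) in CRN/PPN1 in manganese, with dotted lines at the share of all tested genes (10.4% and 7.37%). Right, median log2 difference of the tested members in manganese (filled) and in control medium (open).

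On the lower side, the iron uptake regulon had 12 of 30 genes called lower and 1 higher, a median of -0.96 and 10 lower with the length trend removed. These genes answer to Aft1, the activator that works when iron is scarce. FIT3, for a cell wall protein that retains siderophore iron, was at 1534 and 1116 CPM in CRN and at 118 and 162 CPM in CRN/PPN1 (log2 difference -3.24, SE 0.25, adjusted p = 1.184e-06). FIT1 was at 137 and 138 CPM in CRN and at 21.7 and 12.2 CPM in CRN/PPN1 (log2 difference -3.02). The siderophore transporter gene ARN2 was at 421 and 457 CPM in CRN and at 120 and 97.3 CPM in CRN/PPN1 (log2 difference -2.01). In control medium FIT3 was at 29.1 and 21.4 CPM in CRN and at 50.2 and 35.7 CPM in CRN/PPN1, so the CRN/PPN1 manganese level lay between those of CRN in manganese and of both strains in control medium. The siderophore transporter gene SIT1 was at 251 and 316 CPM in CRN and at 70.2 and 154 CPM in CRN/PPN1 and lost its call without the first CRN/PPN1 library (-0.86). ATX1, the copper chaperone gene, was the higher member (log2 difference 1.95). FET3 and FTR1, which form the high-affinity iron permease, were not called.

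The letters TGCACCC, or GGGTGCA on the other strand, are known for Aft1. This search was added after the values were seen. The letters stood before 22 of the 30 genes (73.3%), before 22 of 420 lower genes (5.24%) and before 2.37% of all tested genes. The 420 include the 12 iron regulon genes called lower, so the first 2 shares are not separate. The list was drawn up as the iron uptake regulon, so its share follows in part from that choice. The letters also stood before ATX1, the member called higher, 116 bases before its coding start. They are shown here for 4 genes called lower and for FET3, which was not called. The stretches are from R64, read along the strand of the gene, with the letters in capitals.
FIT3, chrXV:1061324-1061350, minus strand: gattttttttTGCACCCtgtttgttcc
FIT1, chrIV:1505168-1505194, minus strand: aactatgccgTGCACCCtgttccgcac
ARN1, chrVIII:21215-21241, minus strand: tttatcaaaaTGCACCCataaaagcag
ARN2, chrVIII:10644-10670, minus strand: atcagaaaatGGGTGCAgttcttagtt
FET3, chrXIII:388561-388587, plus strand: tcttcaaaagTGCACCCatttgcaggt

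Of 12 manganese transport genes tested, 0 were called higher and 2 lower, against 10.4% and 7.37% of all tested genes. The 2 were SMF3 and MNC1, and the median of the 12 was -0.47. SMF3, a vacuolar Nramp transporter gene that is also an iron regulon member, was at 225 and 247 CPM in CRN and at 91.6 and 131 CPM in CRN/PPN1 (log2 difference -1.08, SE 0.20), a call lost with the length trend removed, without the second CRN library (-0.99) and without the first CRN/PPN1 library (-0.82). MNC1, for a small cysteine-rich membrane protein, was at 113 and 117 CPM in CRN and at 38.2 and 70.7 CPM in CRN/PPN1 (log2 difference -1.08, adjusted p = 0.00638), and lost the call without the first CRN/PPN1 library (-0.67) and with counts on either strand (-0.43, adjusted p = 0.607). SMF1, for the plasma membrane transporter, was at 137 and 148 CPM in CRN and at 76.7 and 75.6 CPM in CRN/PPN1, past the adjusted p but under the fold limit (log2 difference -0.91, adjusted p = 0.00192). SMF2 was at 166 and 158 CPM against 98.4 and 128 CPM and did not pass the test (log2 difference -0.52, adjusted p = 0.113). GDT1, for a Golgi transporter of calcium and manganese, was at 19.1 and 34.8 CPM in CRN and at 40.5 and 56.2 CPM in CRN/PPN1, under the fold limit (log2 difference 0.84, adjusted p = 0.0342), and was called higher without the second CRN library (1.36) or the first CRN/PPN1 library (1.08). PMR1, the Golgi pump for calcium and manganese, was at 212 and 173 CPM against 149 and 132 CPM (adjusted p = 0.0847), and PMA1, the plasma membrane proton pump, at 969 and 974 CPM against 1435 and 1256 CPM (adjusted p = 0.0784). PMC1, the vacuolar calcium pump gene, was at 734 and 780 CPM in CRN and at 333 and 362 CPM in CRN/PPN1 (log2 difference -1.12), a call lost with the length trend removed.

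Genes of protein folding in the endoplasmic reticulum were lower in 7 of 23 and higher in 0, with a median of -0.51. These genes are targets of the unfolded protein response through Hac1. KAR2, the Hsp70 of this compartment, was at 3606 and 3905 CPM in CRN and at 1001 and 1170 CPM in CRN/PPN1, 3.46-fold lower (log2 difference -1.79, SE 0.22, adjusted p = 3.95e-05). ERO1, for the oxidase that forms disulfide bonds, was at 1372 and 1482 CPM in CRN and at 286 and 386 CPM in CRN/PPN1 (log2 difference -2.09). HAC1 itself was at 1025 and 936 CPM against 424 and 474 CPM (log2 difference -1.13). In control medium KAR2 was at 209 and 240 CPM in CRN and at 360 and 442 CPM in CRN/PPN1, and it was called in the interaction. The list of heat shock proteins and chaperones had 2 of 31 higher and 5 lower, among them KAR2, against 10.4% and 7.37% of all tested genes. BTN2, for a protein that sorts misfolded proteins, was at 294 and 281 CPM in CRN and at 67.7 and 37.2 CPM in CRN/PPN1 (log2 difference -2.46, adjusted p = 1.32e-05). RPN4, the activator of proteasome genes, was lower (-1.22), while 0 of the other 34 proteasome list genes were called.

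In gluconeogenesis and the glyoxylate cycle, the routes used to grow without sugar, 7 of 30 genes were called lower and 2 higher, with a median of -0.52. Among the 6 regulators of these routes, 3 were lower. ADR1, the activator of genes for ethanol and fatty acid use, was at 850 and 917 CPM in CRN and at 114 and 149 CPM in CRN/PPN1, 6.72-fold lower (log2 difference -2.75, SE 0.21, adjusted p = 1.083e-06). CAT8, another activator of growth without glucose, was at 98.5 and 96.5 CPM in CRN and at 22.0 and 17.4 CPM in CRN/PPN1 (log2 difference -2.30). Both went the other way in control medium, where they were called higher in CRN/PPN1. Peroxisomal fatty acid oxidation had 7 of 23 genes lower and 1 higher. FOX2, a multifunctional enzyme of this pathway, was at 182 and 178 CPM in CRN and at 58.6 and 66.8 CPM in CRN/PPN1 (log2 difference -1.52, adjusted p = 6.7e-05). Of 25 genes of glycolysis and fermentation 1 was higher and 1 lower, below the shares of all tested genes (10.4% and 7.37%). None of the 14 glycolytic ones was called. Hexose transporters differed by gene: HXT4 was at 122 and 167 CPM in CRN and at 425 and 485 CPM in CRN/PPN1 (log2 difference 1.65), and HXT10 was at 16.2 and 18.5 CPM against 4.21 and 3.62 CPM (log2 difference -2.14), a call lost without the first CRN library (adjusted p = 0.0721) or the second (adjusted p = 0.105). HXT6 was called lower and HXT7 higher, but these 2 genes are near-identical and their split is uncertain. Of 24 hexose transporter and kinase genes 15 passed the filter of 2 CPM in 4 libraries and were tested. HXT13 was not tested, at 78 and 75 counts in CRN and 0 and 0 in CRN/PPN1 in manganese. Neither were HXT14 (24 and 27 against 0 and 2) and STL1 (37 and 63 against 4 and 5). Of the untested members only HXT17 had more counts in CRN/PPN1 (0 and 0 against 0 and 2).

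The 27 stationary phase genes had 8 higher and 3 lower, with a median of 0.19. With the length trend removed, 3 were higher and 3 lower, with a median of -0.05. The stress response element, AGGGG on either strand, stood before 18 of the 27 (66.7%), before 36.4% of the higher and 33.8% of the lower genes and before 34.4% of all tested genes. HSP12, for a membrane-stabilising hydrophilin, was at 440 and 562 CPM in CRN and at 973 and 1289 CPM in CRN/PPN1 (log2 difference 1.17), a call lost with the length trend removed. RTN2 was at 166 and 106 CPM against 463 and 331 CPM (log2 difference 1.54). XBP1, a repressor induced by stress, was at 338 and 249 CPM in CRN and at 118 and 67.1 CPM in CRN/PPN1 (log2 difference -1.66). Trehalose and glycogen metabolism had 2 of 21 higher and 2 lower (4 and 2 with the length trend removed), near the shares of all tested genes (10.4% and 7.37%). TPS1 (1.01) and UGP1 (1.01) were higher and SGA1 (-1.89) and GSY1 (-1.37) lower. Without the first CRN/PPN1 library GSY1 was not called (-0.99). TPS1 was not called without the second CRN library (0.92) or the second CRN/PPN1 library (0.92), and UGP1 not without the first CRN library (0.77) or the second CRN/PPN1 library (0.97). Both also fell under the fold limit when scaled to the library total (0.70 each). In control medium 19 of the 27 stationary phase genes and 11 of the 21 trehalose and glycogen genes were called higher.

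Cell wall genes moved in both directions. Of 28 mannoprotein genes 4 were called higher and 11 lower, against 10.4% and 7.37% of all tested genes. The median of the 28 was -0.66, and FIT1 and FIT3 are among the lower ones. CWP2, a major wall protein gene, was at 1637 and 1008 CPM in CRN and at 7800 and 3699 CPM in CRN/PPN1 (log2 difference 2.12, SE 0.44, adjusted p = 0.00208). CCW12 was at 2293 and 2092 CPM in CRN and at 6689 and 7627 CPM in CRN/PPN1 (log2 difference 1.71). GSC2, for the glucan synthase used under stress, was at 3070 and 3283 CPM in CRN and at 947 and 1022 CPM in CRN/PPN1 (log2 difference -1.69, SE 0.23, adjusted p = 7.43e-05). In control medium GSC2 was at 58.2 to 129 CPM in all 4 libraries. CHS1, for a chitin synthase, was at 1334 and 1478 CPM in CRN and at 630 and 710 CPM in CRN/PPN1 (log2 difference -1.07), a call lost with the length trend removed. INO1, for the first step of inositol synthesis, was at 2323 and 2208 CPM in CRN and at 789 and 828 CPM in CRN/PPN1 (log2 difference -1.49, adjusted p = 7.01e-05).

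MCH2 had the largest fitted fall among genes past the count minimum, which ranged from -6.40 to -4.53 with 1 library left out. Without the second CRN/PPN1 library it was -4.53, against -4.82 for YKR104W. MCH2, for a protein related to monocarboxylate transporters, was at 366 and 377 CPM in CRN and at 15.9 and 4.28 CPM in CRN/PPN1, which is 36.7-fold lower (log2 difference -5.20, SE 0.36, adjusted p = 3.789e-07). NFT1, for an ABC transporter of the vacuolar type, was at 221 and 282 CPM in CRN and at 16.8 and 17.8 CPM in CRN/PPN1 (log2 difference -3.86, adjusted p = 1.376e-07). YKR104W, the next reading frame on chromosome XI, was at 178 and 177 CPM in CRN and at 6.15 and 15.1 CPM in CRN/PPN1 (log2 difference -4.05). Of 19 multidrug and ABC transporter genes 7 were called lower and 0 higher, with 4 lower and 1 higher after the length trend was removed. PDR10 was at 255 and 294 CPM in CRN and at 49.2 and 73.3 CPM in CRN/PPN1 (log2 difference -2.16). VMR1, for a vacuolar ABC transporter linked to metal resistance, was at 325 and 329 CPM in CRN and at 144 and 143 CPM in CRN/PPN1 (log2 difference -1.18, SE 0.18), a call lost with the length trend removed. Further large falls were those of ULI1 (-3.45), a gene induced by the unfolded protein response, DPA10 (-3.04) and RNR3 (-2.73), the DNA damage-induced subunit of ribonucleotide reductase. RNR3 was at 234 and 227 CPM in CRN and at 39.2 and 30.2 CPM in CRN/PPN1. CSS1 also fell (-3.57), but its difference turned to 0.52 when counts on either strand were used.

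**Figure D5:**
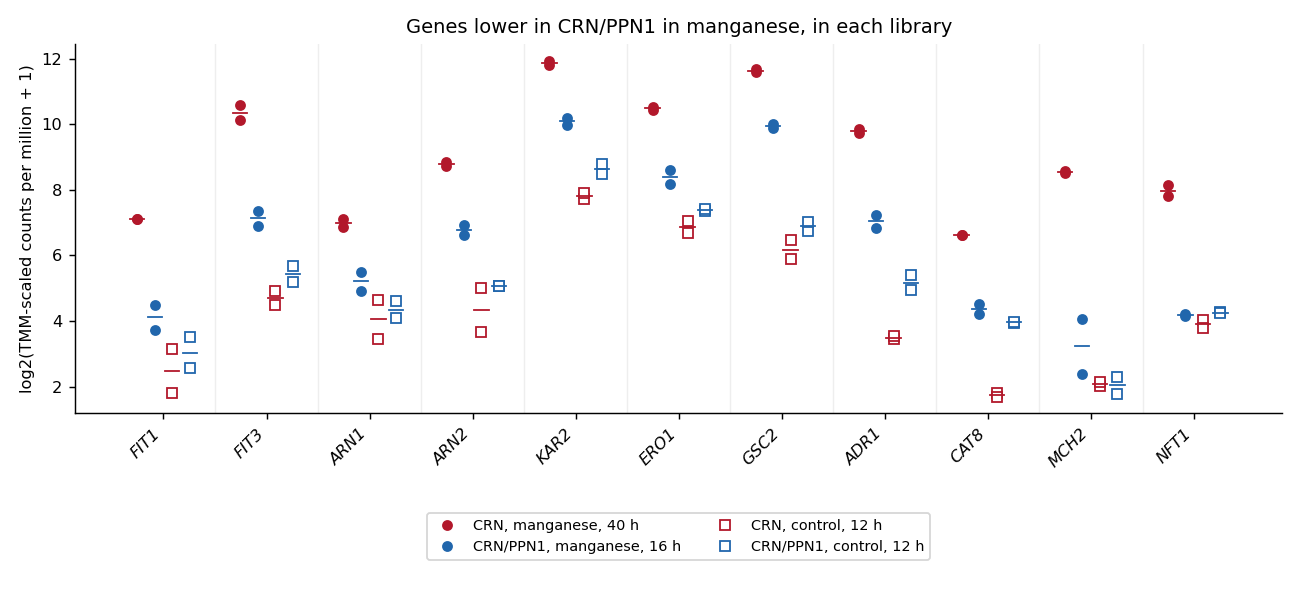
Level of 11 genes called lower in CRN/PPN1 in manganese as log2(CPM + 1), 1 point per library with a bar at the group mean: filled circles are manganese, open squares control medium, red CRN and blue CRN/PPN1. KAR2 and GSC2 in CRN/PPN1 in manganese lie between CRN in manganese and the control libraries, while NFT1 lies at the control level.

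Ergosterol synthesis had 3 of 29 higher and 2 lower (6 and 2 with the length trend removed), among them ERG28 (1.86) and HES1 (-2.90). The 3 and 2 were near the shares of all tested genes (10.4% higher and 7.37% lower). Nitrogen catabolite repressed genes had 4 of 29 higher and 6 lower, against 10.4% and 7.37% of all tested genes. The permease genes GAP1 (1.22), AGP1 (1.25), PUT4 (1.30) and OPT2 (1.04) were higher. DAL4 (-1.96), DAL5 (-1.28), DAL80 (-1.72), UGA4 (-1.42), CAR2 (-1.12) and PUT1 (-1.84) were lower. Calls were lost for AGP1 without the second CRN/PPN1 library (0.98), OPT2 without the same library (0.93) or with counts on either strand (0.23), DAL5 without the second CRN library (-0.96), DAL80 without the first CRN (-1.19) or the second CRN/PPN1 library (-1.30), and CAR2 without any of the 4 manganese libraries in turn (-1.34 to -0.81). PUT1, for proline oxidase, was at 1104 and 1049 CPM in CRN and at 311 and 290 CPM in CRN/PPN1 (adjusted p = 2.12e-05). In sulfate and methionine metabolism HOM2 and HOM3 were higher and SUL1 and MET30 lower, of 35 tested, below the shares of all tested genes. SUL1 did not pass the adjusted p without the second CRN library (-1.60). MET30 lost its call with the length trend removed (-0.80) and without the first CRN library (-0.99). HOM3 lost its call when scaled to the library total (0.83). Autophagy and vacuolar proteases had APE3 higher and ATG1, ATG9, ATG11 and ATG32 lower, of 29, against 10.4% and 7.37% of all tested genes. ATG1 was not called without the first CRN library (adjusted p = 0.0523), the second CRN library (adjusted p = 0.0703) or the second CRN/PPN1 library (adjusted p = 0.0512). ATG11 was not called without the first CRN library (adjusted p = 0.0656) or the first CRN/PPN1 library (-0.99), and both lost the call with the length trend removed. ZAP1, the activator of zinc uptake, was at 94.8 and 106 CPM in CRN and at 25.6 and 39.1 CPM in CRN/PPN1 (log2 difference -1.64), and of 17 zinc and copper genes YKE4 was the other one called, also lower. The G1 cyclin gene CLN1 was at 41.6 and 48.4 CPM in CRN and at 144 and 114 CPM in CRN/PPN1 (log2 difference 1.52). Of 28 cell cycle genes 3 were higher, near the 10.4% of all tested genes, and 1 was lower (5 and 1 with the length trend removed).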

How the data were processed

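Single-end reads were trimmed by the authors with Trimmomatic 0.36 and mapped and counted with STAR 2.5.3a on the Ensembl R64 annotation. The deposited counts are unnormalized reads per gene, without pooling of replicates. Counts on the opposite strand (90.7% to 93.3% of strand-assigned counts) were used. Of 7126 genes, 5778 reached 2 CPM in 4 or more of the 8 libraries and were tested. A gene past 2 CPM in only 1 of the 4 groups could not pass this filter. Analysis used R 4.3.3 and edgeR 4.0.16 (quasi-likelihood, legacy form, TMM, 4 groups, two-sided F test, Benjamini-Hochberg over all tested genes, prior count 0.125). The biological coefficient of variation was 0.18. DESeq2 1.42.0, other scalings, filters, a length correction, a replicate block and leaving out each library were alternatives. Scripts were tested on simulated data. The members and lists were chosen with earlier results of these data known.

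Named genes were PPN1, the genes the study names, the 10 largest called rises and falls above a mean level of 100 normalized counts with strains that did not overlap, the 5 largest interactions in each direction, and up to 5 called genes per direction in each list, by smallest adjusted p. SPL2, SIT1, GRX1, GRX5 and the remaining genes called lower in both media were named after their values were seen. Of the listed symbols, 4 had no match in the annotation. Promoter letters were searched in 500 bases before the coding start, which can reach into a neighbouring gene.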

Additional observations from a re-analysis of the deposited data

Results flagged for a closer look

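The strain difference differed between the media, by the test of the interaction (edgeR, adjusted p at most 0.05), in the following genes. Each value is the log2 difference between strains in manganese minus that in control medium. SNR63 had 4.56, SNR56 had 4.24 and SNR190 had 3.84. SNR56 was at 0 and 0.857 CPM in CRN in manganese, and SNR190 was at 297 and 28.1 CPM in the 2 CRN control libraries, so these values rest on few or uneven counts. RPS22A had 3.67: it was at 352 and 427 CPM in CRN and at 2593 and 1996 CPM in CRN/PPN1 in manganese, and was called lower in CRN/PPN1 in control medium. PHO12 had 4.32, all of it from control medium, where it was at 121 and 134 CPM in CRN and at 12.7 and 1.74 CPM in CRN/PPN1. PHO12 shares most of its sequence with PHO11.

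In the other direction, PHM7 had -8.76. PHM7 was at 0 in both CRN control libraries and at 11.02 and 12.6 CPM in CRN/PPN1, at least 6.66-fold higher against a floor of 3 counts per library, so the fitted value depends on the prior count. MCH2 had -5.16, with 2.45 to 3.92 CPM in all 4 control libraries. CAT8 had -4.91, YBR284W had -4.82 and ADR1 had -4.52. YBR284W was at 893 and 807 CPM in CRN and at 138 and 98.0 CPM in CRN/PPN1 in manganese, and at 6.82 and 7.87 CPM against 23.7 and 34.4 CPM in control medium.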

How the results depend on the processing

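Vector and strain could not be separated in either medium, and growth time could not be separated from them in manganese. Each group had 2 cultures, and levels of genes with near-identical copies are uncertain. Scaling to the library total moved the median log2 difference of all genes to -0.32 in manganese, 0.50 in control medium and -0.84 in the interaction, and called 392 genes higher and 878 lower in manganese, 366 and 2149 in the interaction, and 913 and 37 in control medium. Removing the length trend called 398 higher in manganese, and 107 lower in control medium. Without a limit on the fold change 1024 genes were higher and 809 lower in manganese, and 513 lower in control medium. Leaving out each library in turn called 556 to 664 genes higher and 323 to 501 lower in manganese, 748 to 926 and 464 to 791 in the interaction, and 147 to 324 and 105 to 340 in control medium. Of the 196 named genes called in manganese, 110 kept their call in each of the 22 alternatives that held them. Library total scaling lost 33, the length trend 43 of 186, and leaving out 1 manganese library 16 to 20.

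Signs that turned were CSS1 with counts on either strand (0.52), VTC1 with the length trend removed (-0.12, and -0.12 with the block), PPX1 (-0.11) and PHO12 (-0.12) with the library total, PPX1 without the second CRN/PPN1 manganese library (-0.092, with 0.47 as the highest value with 1 library left out) and PHO12 without the first (-0.15, highest 0.50). The cause was not tested.

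With a replicate block, 195 of the 196 named genes called in manganese kept their call. The block with the length trend removed called 398 higher in manganese and 120 lower in control medium. The labels give no shared culture to a number, and the correlation of same-numbered deviations was 0.217 between the manganese groups.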
